A study of Homo sapiens with 14 samples.

Results

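SK-N-SH and SH-SY5Y are established human neuroblastoma cell lines that share an origin: SH-SY5Y is a subclone of SK-N-SH, by textbook knowledge that the labels do not hold. They are 2 of the 14 lines whose RNA was sequenced in a study of telomere damage, immunogenicity and antibodies against PD-L1. Both were chosen by name, and the pair and the gene lists used below were chosen with earlier results of these data known. The other 12 lines serve as the background of spread between lines. Each line is represented by 1 library of total RNA, and the labels name no treatment, passage or genotype for any of them. All lines were kept without antibiotics in RPMI1640 or DMEM with 10% fetal bovine serum, and which line was in which medium is not stated.

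Neuroblastoma arises from sympathoadrenal cells of the neural crest, and its cell lines are known to occupy at least a pair of states. Adrenergic cells carry a transcription factor circuit around HAND2 and GATA3 and make the enzymes of catecholamine synthesis. Mesenchymal cells resemble neural crest and stromal cells, carry factors such as PRRX1 and the AP-1 family, and make matrix and adhesion proteins. SK-N-SH cultures are known to hold both neuroblastic and flat, substrate-adherent cells, and SH-SY5Y was cloned as a neuroblastic line, so the pair sets a cell state contrast on a shared origin.

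Levels are given as CPM, counts scaled to a common library size, and a difference as the ratio of SK-N-SH over SH-SY5Y, whose log2 is positive where SK-N-SH is higher. With 1 library per line, no replicate spread exists, so the pair has no test and no p-value. The 95% intervals of ratios are exact binomial intervals and cover counting error only. In bulk RNA, fewer cells of a type and less RNA per cell cannot be told apart. The libraries held 43078942 counts in SK-N-SH and 39482014 in SH-SY5Y, within the range of the other lines. Mitochondrial genes took 8.58% and 5.01% of counts.

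Of 20049 gene symbols, 15299 had at least 50 counts over both libraries and count as measured. At least 4-fold higher in SK-N-SH were 1448 genes (9.46% of those measured), and at least 4-fold lower were 1321 (8.63%), which makes 18.1% in either direction. A further 9707 genes (63.4%) lay within 2-fold. The median log2 ratio was -0.01, and the interquartile range ran from -0.67 to 0.68. The shares of 9.46% higher and 8.63% lower are the background for every count of called genes below. A count near them, such as a single gene in a short list, is no feature of that list.

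**Figure D1:**
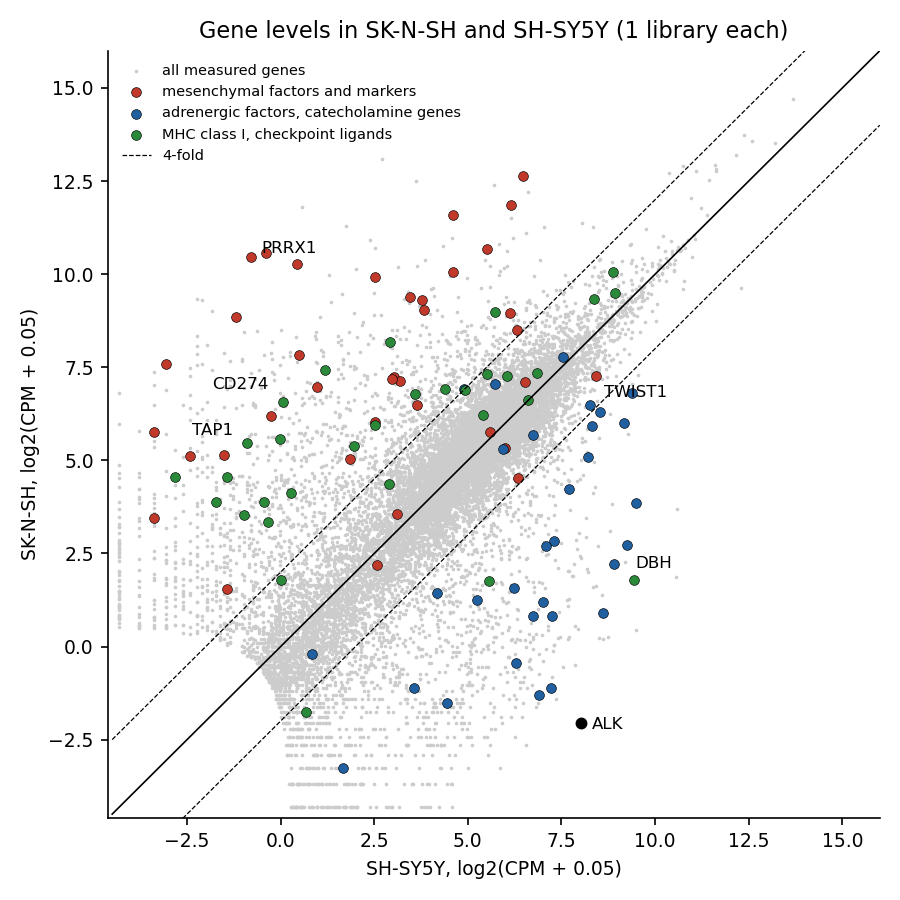
Level of every measured gene in SH-SY5Y (x axis) and SK-N-SH (y axis), as log2 of CPM plus 0.05, with 1 library per line. Each point is a gene, the solid line marks equal levels and the dashed lines 4-fold; mesenchymal genes lie mostly above the upper dashed line, adrenergic genes mostly below the lower one.

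PRRX1, a homeobox factor that can drive the mesenchymal state, stood at 1413 CPM for SK-N-SH and 0.528 CPM in SH-SY5Y (chr1:170662728-170739419, plus strand, GRCh38). That is a 2678-fold ratio (95% interval 1784 to 4225). In the other 12 lines PRRX1 ranged from 0.025 CPM in IMR32 to 112 CPM in IMR5-75, with a median of 0.489. SH-SY5Y thus sat close to the middle line and SK-N-SH 12.6-fold above the highest, which was not GI-ME-N. CD274, which encodes PD-L1, stood at 95.04 CPM for SK-N-SH and 0.987 CPM in SH-SY5Y (chr9:5450503-5470566, plus strand), a 96.3-fold ratio (95% interval 71.4 to 133). The other lines held 0.0211 to 31.5 CPM of CD274, with the maximum in GI-ME-N. Both genes were therefore highest of all 14 lines in SK-N-SH, while SH-SY5Y was 7th for PRRX1 and 6th for CD274.

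The promoter of PRRX1 is shown because its gene had the highest level difference among the mesenchymal factors, and those of CD274 and TAP1 because both genes of immune recognition were over 90-fold higher in SK-N-SH. Sequences are RefSeq promoters on GRCh38.p14, from 250 bases before to 50 bases after a start. They lie at chr1:170663881-170664180 (plus strand), chr9:5450292-5450591 (plus strand) and chr6:32853655-32853954 (minus strand). Capitals mark matches to the core of the interferon-stimulated response element (GAAA, 2 bases of any kind, then GAAA), searched on both strands.
PRRX1: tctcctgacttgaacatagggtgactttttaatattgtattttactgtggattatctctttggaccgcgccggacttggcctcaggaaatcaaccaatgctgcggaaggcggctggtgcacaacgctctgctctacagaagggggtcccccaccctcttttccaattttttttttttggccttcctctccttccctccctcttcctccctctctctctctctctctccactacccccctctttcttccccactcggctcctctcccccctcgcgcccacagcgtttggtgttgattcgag
CD274: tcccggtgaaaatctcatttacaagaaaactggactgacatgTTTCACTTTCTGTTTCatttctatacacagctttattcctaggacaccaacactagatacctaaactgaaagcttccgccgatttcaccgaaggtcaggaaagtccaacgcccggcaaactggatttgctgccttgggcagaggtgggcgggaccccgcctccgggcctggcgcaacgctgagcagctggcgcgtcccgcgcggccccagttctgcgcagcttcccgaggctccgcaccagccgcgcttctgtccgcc
TAP1: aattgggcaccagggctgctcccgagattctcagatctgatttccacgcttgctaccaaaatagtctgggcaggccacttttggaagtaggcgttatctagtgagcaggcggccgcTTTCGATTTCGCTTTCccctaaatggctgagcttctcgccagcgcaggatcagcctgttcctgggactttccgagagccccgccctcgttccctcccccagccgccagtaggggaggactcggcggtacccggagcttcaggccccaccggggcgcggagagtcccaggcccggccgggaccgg
CD274 held 2 overlapping matches, on the minus strand, the first of them starting 208 bases before the start, and TAP1 held 2 overlapping matches, the first of them starting 134 bases before it. Neither this core nor the AP-1 motif TGANTCA occurred in the window of PRRX1, and the AP-1 motif was also not in those of CD274 and TAP1. Of 35116 RefSeq promoters of this length, 3.57% held the response element core and 7.71% the AP-1 motif. A match is a description of letters and not a site in use.

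Among 21 listed mesenchymal transcription factors, 17 were measured, 11 were at least 4-fold higher in SK-N-SH and none at least 4-fold lower, with a median log2 ratio of 3.19. TBX18, a T-box factor of mesenchymal progenitors, was at 54.5 CPM against 0.0459 CPM. The Runt factors followed the same direction, RUNX1 at 72.6 against 0.780 CPM and RUNX2 at 34.4 against 0.138 CPM. SNAI2, a repressor of epithelial genes, stood at 32.9 CPM against 3.56 CPM, and the glucocorticoid receptor NR3C1 at 64.7 CPM against 5.74 CPM.

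Not every mesenchymal factor leaned toward SK-N-SH. TWIST1, a factor of epithelial-mesenchymal transition, was at 153 CPM for SK-N-SH and 342 CPM in SH-SY5Y, the highest level of all 14 lines (range of the other 12, 10.1 to 94.5 CPM). FOXC1 was likewise highest of 14 in SH-SY5Y, at 80.9 CPM against 22.8 CPM. ZEB1 and ZEB2 differed by less than 2-fold, with log2 ratios of -0.65 and 0.16. For TWIST1 both lines lay above all 12 others.

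The mesenchymal marker genes differed more uniformly. All 20 listed were measured, 19 were at least 4-fold higher in SK-N-SH, and the median log2 ratio was 5.63. Vimentin, the intermediate filament of mesenchymal cells, stood at 6349 CPM against 89.1 CPM (VIM). CAV1, the scaffold of caveolae, stood at 1515 CPM against 0.711 CPM, and NT5E, the ectoenzyme CD73, at 1238 CPM against 1.31 CPM. Fibronectin was at 3739 CPM against 70.6 CPM (FN1), and the hyaluronan receptor CD44 at 665 CPM against 10.9 CPM. TIMP3 was the exception, with a log2 ratio of 0.59. For most of these markers GI-ME-N was the highest of the other 12 lines, at 10610 CPM of VIM and 17720 CPM of FN1.

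Collagen and matrix genes were among the most abundant transcripts on the SK-N-SH side. Of 13 measured collagens 10 were at least 4-fold higher (median log2 ratio 4.60), and of 20 other matrix genes 16 were (median 5.60), with none lower in either list. COL1A1, a chain of type I collagen, was at 8734 CPM against 6.45 CPM, while COL1A2, the gene of its partner chain, was at 24.4 CPM against 0.964 CPM. In GI-ME-N, the highest of the other lines for both, COL1A1 was at 9100 CPM and COL1A2 at 1872 CPM, so SK-N-SH was close to GI-ME-N for COL1A1 and well below it for COL1A2. COL3A1 was at 5349 CPM against 52.3 CPM. Periostin (POSTN), a matricellular protein, was at 1572 CPM against 1.01 CPM, 29.6-fold above the highest of the other 12 lines. The plasminogen activators PLAT and PLAU were at 1004 and 160 CPM for SK-N-SH and at 2.39 and 0.826 CPM in SH-SY5Y.

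Receptors for that matrix followed the same direction. Of 16 integrin genes, 10 were at least 4-fold higher in SK-N-SH and 1 lower (median log2 ratio 3.02, and 1.62 on the log2 values that the authors deposited). ITGB1, the common beta subunit, was at 2473 CPM against 326 CPM, ITGA3 at 1714 against 19.98 CPM and ITGA5, a fibronectin receptor subunit, at 163 against 0.528 CPM. ITGA9 was the gene on the other side, at 3.24 CPM against 53.9 CPM.

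Transforming growth factor beta signalling, a driver of matrix production in many tissues, held 17 measured genes of 18 listed, 11 of them at least 4-fold higher in SK-N-SH and 1 lower (median log2 ratio 2.85). The ligand TGFB1 was at 177 CPM against 2.13 CPM, and its receptor TGFBR2 at 158 CPM against 2.98 CPM. The signal transducers SMAD2 and SMAD4 lay within 2-fold, with log2 ratios of -0.14 and -0.10, and so did the receptor TGFBR1 at -0.26. TGFBI, a matrix protein named for its induction by the pathway, showed a larger ratio, at 3563 CPM against 1.45 CPM. BAMBI, a decoy receptor of the pathway, was lower in SK-N-SH, at 3.60 CPM against 27.9 CPM, and SH-SY5Y held the highest BAMBI of the 14 lines.

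In the Hippo pathway, whose effectors YAP and TAZ act through TEAD factors, 8 of 15 genes were at least 4-fold higher in SK-N-SH and none lower (median log2 ratio 3.65). YAP1 was at 212 CPM against 0.436 CPM and WWTR1, the gene of TAZ, at 112 CPM against 1.26 CPM. Their targets CCN2 (2489 against 3.30 CPM) and CCN1 (1925 against 5.14 CPM) were highest of all 14 lines in SK-N-SH. The DNA-binding partners TEAD1 to TEAD4 differed by less than 4-fold, with log2 ratios from 1.04 to 1.71. LATS1, an upstream kinase, leaned the other way at -0.39, whereas LATS2 was at 153 CPM against 0.138 CPM.

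AP-1 factors, dimers of FOS and JUN family proteins, were nearly all on the SK-N-SH side: of 10 measured, 9 were at least 4-fold higher (median log2 ratio 3.05). FOSL1 was at 127 CPM against 0.528 CPM, and FOSB at 115 CPM against 2.50 CPM, 5.36 CPM being the highest of the other 12 lines. JUN was at 141 CPM for SK-N-SH and 15.99 CPM in SH-SY5Y, the lowest of 14. JUND, with 83.1 and 87.9 CPM, did not differ by more than its 4-fold call, and its log2 ratio was -0.08.

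On the adrenergic side, 21 transcription factors were listed, 20 measured, 15 at least 4-fold lower in SK-N-SH and none higher, with a median log2 ratio of -3.31. HAND1 was at 0.357 against 119 CPM, INSM2 at 0.412 against 149 CPM and GATA2 at 14.3 against 715 CPM. The core factors HAND2 and GATA3 were only partly lower, HAND2 at 111 against 670 CPM and GATA3 at 61.0 against 316 CPM. Even so, SK-N-SH held the least HAND2 of the 14 lines. PHOX2A, a homeobox factor of sympathetic neurons, stayed under the 4-fold call at 88.8 against 308 CPM. For the 15 genes called, SK-N-SH kept a median of 2.00% of the SH-SY5Y level, from 0.277% to 19.3%.

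TFAP2B, SIX3, ISL1, SATB1 and ZNF536 were highest of all 14 lines in SH-SY5Y. TFAP2B, a factor of sympathetic differentiation, stood at 481 CPM there against a median of 5.71 CPM in the other 12 lines. PBX3 went the other way, at 134 CPM for SK-N-SH and 53.1 CPM in SH-SY5Y, and TBX2 was nearly equal at 218 and 187 CPM. INSM1 had 1 count in SK-N-SH and 0 in SH-SY5Y, against a median of 22.3 CPM in the other 12 lines.

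**Figure D2:**
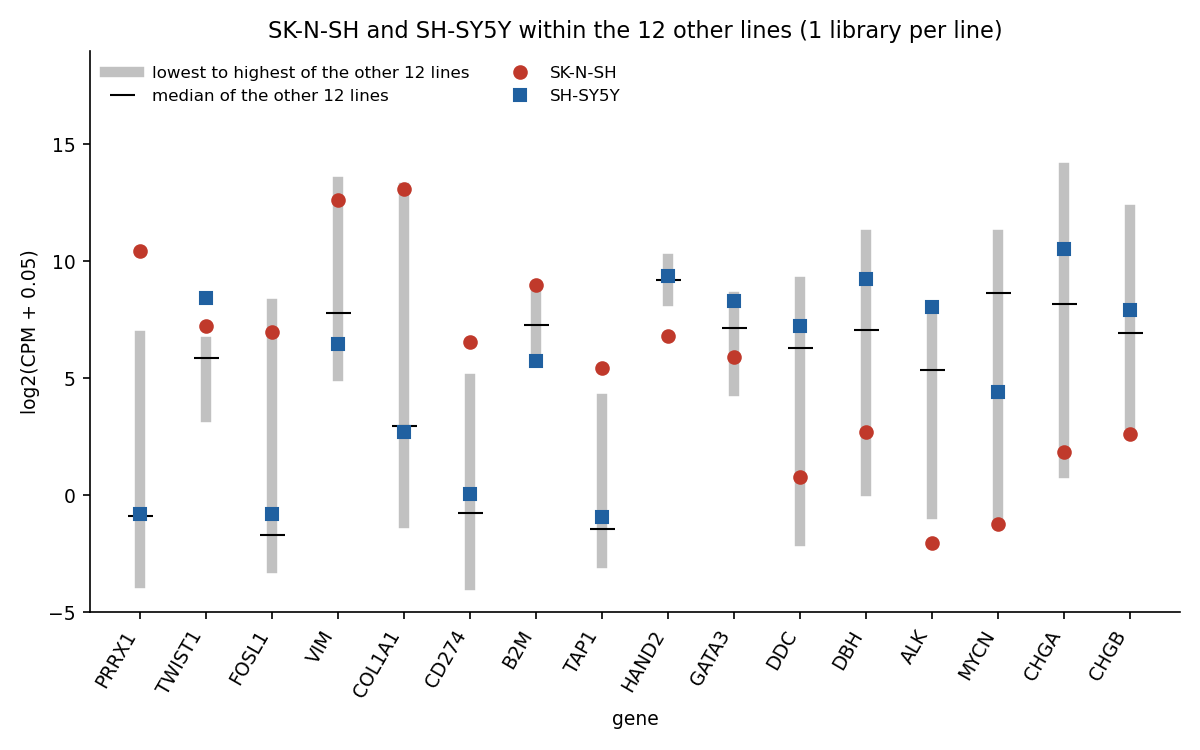
Levels of 16 genes named in the text, as log2 of CPM plus 0.05 on the y axis, with SK-N-SH as circles and SH-SY5Y as squares. Grey bars run from the lowest to the highest of the other 12 lines and the black dash is their median. SK-N-SH lies above the bar for genes such as PRRX1, TWIST1, CD274, B2M and TAP1, with SH-SY5Y higher still for TWIST1. It lies below the bar for genes such as HAND2, ALK, MYCN and CHGB.

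Catecholamine genes made up the next group, the steps from tyrosine to noradrenaline and its storage and breakdown. Of 12 listed, 11 were measured, 9 were at least 4-fold lower in SK-N-SH and 1 higher (median log2 ratio -4.47). DBH, which makes noradrenaline from dopamine, was at 6.59 CPM against 609 CPM (chr9:133635348-133659344, plus strand), 92.4-fold more in SH-SY5Y (95% interval 81.4 to 105). DDC, the decarboxylase before it, was at 1.70 CPM against 152 CPM, and the noradrenaline transporter SLC6A2 at 6.45 CPM against 137 CPM. TH, the first and rate-limiting enzyme, was low in both: 0 counts in SK-N-SH, which allows up to 0.0823 CPM, and 0.551 CPM in SH-SY5Y against a median of 21.1 CPM in the other 12 lines. MAOB, a monoamine oxidase, was at 38.1 CPM in SH-SY5Y and 2.33 CPM in SK-N-SH, where the other lines reached 2.76 CPM at most.

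The DBH promoter is shown as the counterpart from the adrenergic side (RefSeq, GRCh38.p14, chr9:133636113-133636412, plus strand). Capitals mark the E-box, CANNTG, the motif of basic helix-loop-helix factors such as HAND2.
DBH: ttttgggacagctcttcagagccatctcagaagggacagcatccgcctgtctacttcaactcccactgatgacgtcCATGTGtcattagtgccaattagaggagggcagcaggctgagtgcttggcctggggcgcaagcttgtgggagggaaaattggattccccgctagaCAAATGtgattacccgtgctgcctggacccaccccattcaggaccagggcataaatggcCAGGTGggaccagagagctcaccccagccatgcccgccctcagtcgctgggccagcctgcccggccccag
The window of DBH held 3 E-boxes, and at least 1 E-box occurred in 68.7% of RefSeq promoters of this length.

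Secretory and neuronal genes were lower in SK-N-SH with a few exceptions. Of 9 measured granins and neuropeptides 5 were at least 4-fold lower and 2 higher (median log2 ratio -5.29). CHGA, a granin of dense-core vesicles, was at 3.60 CPM against 1497 CPM and CHGB at 6.15 against 242 CPM. SCG2, a further granin, was at 2217 CPM in SK-N-SH, the highest of 14 lines, and 94.2 CPM in SH-SY5Y. The peptide VIP was also higher in SK-N-SH, at 28.6 CPM against 1.40 CPM. Of 18 genes of the neuronal cytoskeleton 14 were at least 4-fold lower and none higher (median -4.97). DCX, a microtubule protein of migrating neurons, was at 1.32 CPM against 725 CPM, and STMN2 at 12.8 CPM against 1527 CPM, both highest of 14 in SH-SY5Y. TUBB3, often used as a neuronal marker, was at 311 CPM against 657 CPM, and MAP1B at 997 CPM against 501 CPM, so neither passed 4-fold.

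Of 19 synaptic vesicle genes 11 were at least 4-fold lower in SK-N-SH and 1 higher (median log2 ratio -2.97). SNAP25, a core fusion protein, was at 27.3 CPM against 214 CPM, while VAMP2 was at 77.9 against 68.6 CPM and SYT1 at 83.0 against 58.1 CPM. RAB3B, a vesicle GTPase, was the exception at 185 CPM against 13.4 CPM. Of 10 measured cholinergic genes 7 were lower and 1 higher (median -5.26). The nicotinic receptor subunits CHRNA3 (5.30 against 255 CPM) and CHRNA7 (3.21 against 126 CPM) were among those lower, and SLC5A7, the choline transporter, was higher in SK-N-SH at 21.9 CPM against 1.03 CPM.

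Receptor tyrosine kinases split between the lines. Of 28 listed, 26 were measured, 5 were at least 4-fold higher in SK-N-SH and 8 lower, and the median log2 ratio was -0.11. ALK, a driver gene of neuroblastoma, was at 0.192 CPM in SK-N-SH (7 counts), the lowest of 14 lines, and 262 CPM in SH-SY5Y, the highest (chr2:29192774-29921566, minus strand). The ratio was 1361-fold (95% interval 660 to 3386), the largest on the SH-SY5Y side among genes beyond the spread of the other lines with at least 10 CPM in the higher line. RET was at 10.8 against 284 CPM and its co-receptor subunit GFRA3 at 0.165 against 49.3 CPM. The neurotrophin receptor NTRK2 (0.165 against 4.34 CPM) was also lower in SK-N-SH.

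On the other side, EGFR was at 320 CPM in SK-N-SH, the highest of 14, and 4.06 CPM in SH-SY5Y, the lowest. AXL was at 362 against 0.964 CPM, MET at 218 against 18.1 CPM and EPHA2 at 202 against 17.2 CPM. Several receptors were held at like levels in both lines and above most others. PDGFRA was at 158 and 150 CPM against a median of 10.7 CPM in the other 12 lines, and ROR1 at 36.2 and 32.0 CPM, both above the 27.3 CPM of GI-ME-N, the highest of the others.

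Antigen presentation genes lay on the SK-N-SH side. Of 21 genes of MHC class I and peptide loading 20 were measured, 13 were at least 4-fold higher and none had a ratio below 1 (median log2 ratio 3.44). The peptide transporter gene TAP1 was at 44.1 CPM against 0.482 CPM (91.5-fold, 95% interval 59.6 to 148), and TAP2 at 42.0 against 3.83 CPM. The immunoproteasome subunits PSMB8 and PSMB9, whose genes lie beside TAP1 and TAP2, were at 23.2 and 10.0 CPM for SK-N-SH and at 0.321 and 0.734 CPM in SH-SY5Y. The light chain B2M was at 507 CPM, the highest of 14 lines, against 53.1 CPM in SH-SY5Y, the lowest. The aminopeptidase ERAP1 was likewise highest in SK-N-SH (61.3 CPM) and lowest in SH-SY5Y (5.64 CPM).

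Among the heavy chains, HLA-B was at 14.6 against 0.688 CPM, HLA-C at 287 against 7.46 CPM and HLA-E at 172 against 2.23 CPM. These genes are near-identical in parts and vary between people, so estimated counts may be split among them and their single values are uncertain. NLRC5, the transactivator of the class I genes, was at 14.8 CPM against 0.252 CPM. The chaperones CANX and PDIA3 were within 2-fold, with log2 ratios of 0.56 and 0.94.

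Checkpoint ligands lay on both sides. Of 16 listed, 11 were measured, 4 were at least 4-fold higher in SK-N-SH and 3 lower. Besides CD274, PDCD1LG2, the gene of PD-L2, was at 23.6 CPM against 0.0918 CPM, and VSIR at 17.2 against 1.17 CPM, each highest of 14 in SK-N-SH. CD24, a ligand that restrains macrophages, was at 3.40 CPM in SK-N-SH, the lowest of 14, and 687 CPM in SH-SY5Y, the highest. CD200 was at 3.32 against 47.4 CPM. CD47 and CD276 were nearly equal, CD47 at 98.4 and 97.3 CPM. Of the ligands that natural killer cells recognise, MICA (24.1 against 1.24 CPM) and MICB (14.3 against 0.688 CPM) were higher in SK-N-SH, whereas NCR3LG1, the gene of B7-H6, was at 2.22 against 23.9 CPM.

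Interferon-stimulated genes held 22 measured members of 24, 13 of them at least 4-fold higher in SK-N-SH and none lower (median log2 ratio 2.49, and 1.78 on the deposited log2 values). IFITM3, a membrane protein that restricts virus entry, was at 121 CPM against 0.321 CPM, GBP1 at 26.0 against 0.0688 CPM and IFIT1 at 23.3 against 2.82 CPM. The list was not uniform: OAS1 was at 0.768 against 2.23 CPM, and OAS3, RSAD2 and MX2 lay close to equal, with log2 ratios of 0.01, -0.15 and -0.04. In a separate list of 15 interferon receptors, kinases and signalling regulators, 3 passed 4-fold: SOCS1 (2.96 against 0.161 CPM), SOCS3 (70.2 against 13.7 CPM) and IRF1 (15.4 against 3.63 CPM). The receptor genes IFNGR1 and IFNAR2 were nearly equal, at log2 ratios of -0.25 and 0.25.

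Genes of nucleic acid sensing held some large single differences, though most stayed under 4-fold. STING1, which signals cytosolic DNA, was at 123 CPM against 0.642 CPM and highest of 14 in SK-N-SH, and IFI16, a DNA-binding protein, was at 187 against 0.161 CPM. CGAS, which makes the messenger that STING1 senses, was low in both lines, at 0.247 and 0.574 CPM, and stayed under the count floor. In all, 4 of 11 measured sensing genes were at least 4-fold higher, none lower and 7 under 4-fold (median log2 ratio 1.35). Their list summed to 1033 CPM in SK-N-SH, within the 541 to 1301 CPM of the other 12 lines. Of 19 measured genes around NF-kappaB, 13 were at least 4-fold higher in SK-N-SH and none lower (median log2 ratio 3.52, and 1.59 on the deposited log2 values). CXCL8, a neutrophil chemokine, was at 14.6 CPM against 0 counts, at least 212-fold higher (floor of 3 counts), and CCL2 was at 51.2 against 3.69 CPM.

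Genes of cell death lay more on the SK-N-SH side. FAS was at 45.6 CPM against 1.08 CPM and CASP8, the initiator caspase of that pathway, at 28.0 against 2.55 CPM. BCL2, which blocks cell death at mitochondria, was the reverse, at 10.0 CPM against 113 CPM. Over this list of 18 measured genes, 7 were higher (38.9%) and 2 lower (11.1%), and the median log2 ratio was 1.34. The share lower is near the 8.63% of all measured genes, and the share higher stands beside 9.46%. CDKN1A, the cell cycle inhibitor p21, was at 981 CPM against 22.7 CPM and highest of 14 in SK-N-SH.

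**Figure D3:**
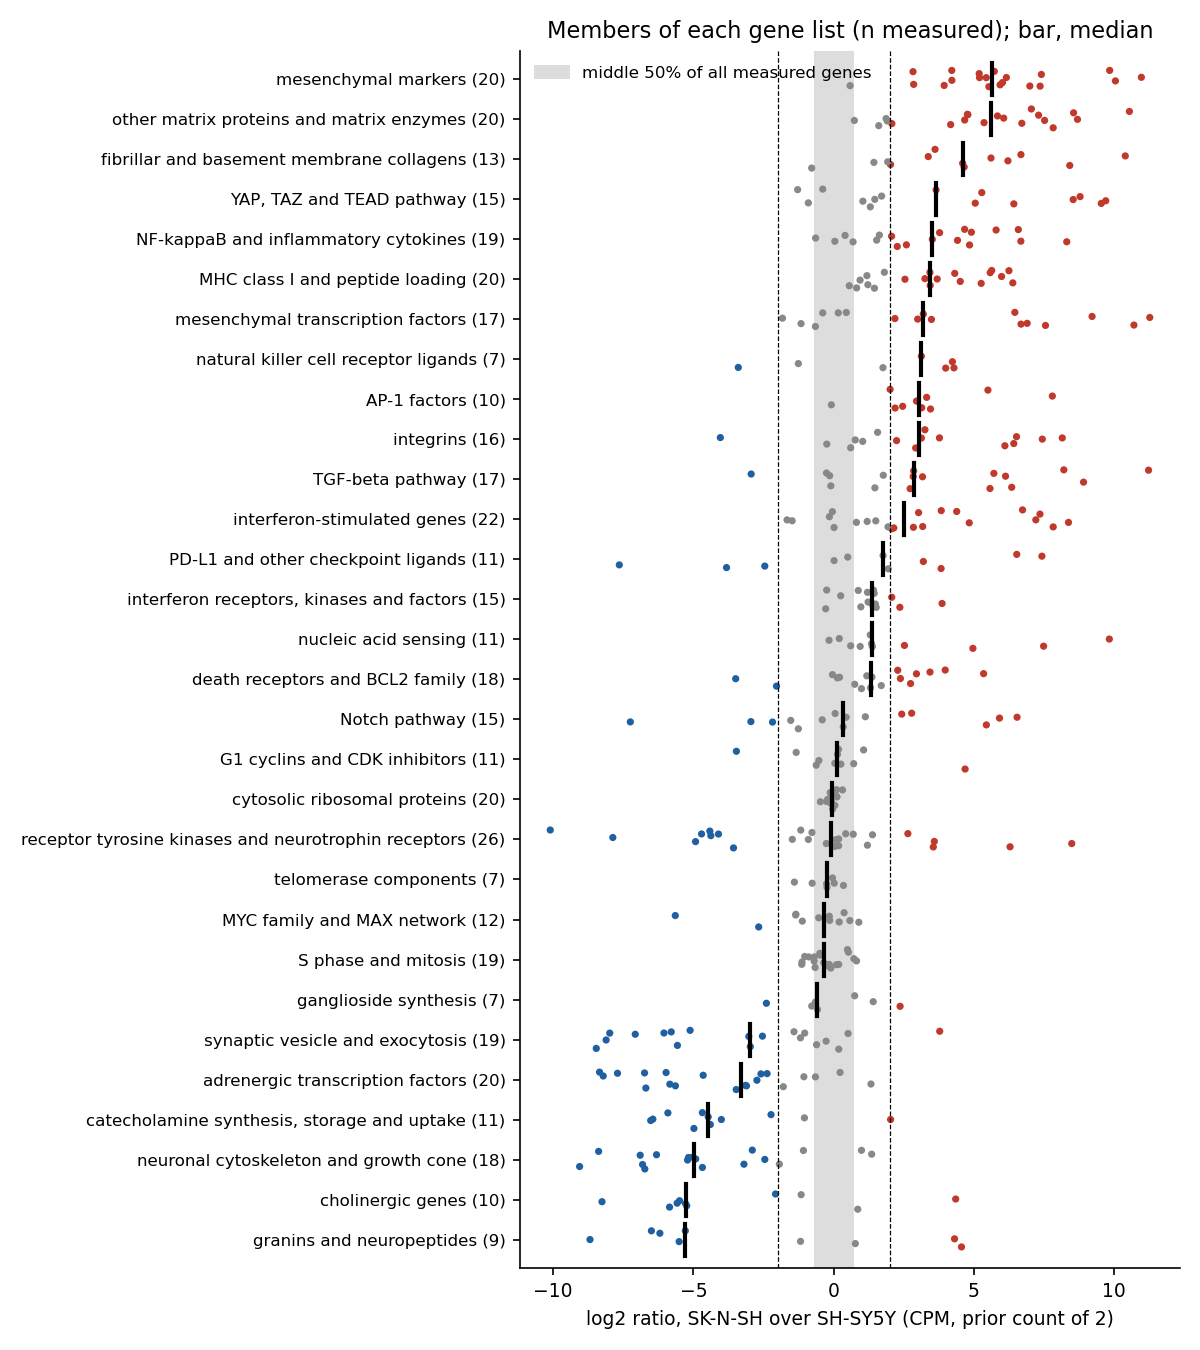
Log2 ratio of SK-N-SH over SH-SY5Y (x axis, CPM with a prior count of 2) for every measured member of each gene list (y axis, number measured in brackets). Points past 4-fold are coloured, black bars are list medians, dashed lines mark 4-fold and the grey band is the interquartile range of all measured genes; matrix, mesenchymal and MHC class I lists lie to its right, neuronal and adrenergic lists to its left, and ribosomal and cell division lists within it.

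Some groups hardly differed. None of 19 genes of S phase and mitosis passed 4-fold (median log2 ratio -0.35), although MKI67 (145 against 319 CPM) and MCM3 (117 against 256 CPM) were lowest of the 14 lines in SK-N-SH. None of 20 ribosomal protein genes did either, with log2 ratios from -0.47 to 0.32. None of 7 telomerase components passed it, and TERT was at 6.56 against 17.4 CPM. In the MYC network 2 of 12 genes were lower in SK-N-SH, MYCN (0.384 against 21.5 CPM) and MYCL (1.07 against 7.07 CPM), and MYC was at 50.7 against 129 CPM.

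Notch genes were mixed, with 5 of 15 measured higher and 3 lower (median log2 ratio 0.34). The receptor NOTCH1 was at 83.0 against 0.849 CPM and its target HES1 at 89.7 against 1.45 CPM. DLK1, a non-canonical ligand, was at 0.988 against 157 CPM. In ganglioside synthesis, B4GALNT1, the enzyme that makes GD2 from GD3, was at 18.4 CPM in SK-N-SH, the lowest of 14, against 97.3 CPM. ST8SIA1, which makes GD3, was low in both, at 0.933 and 1.49 CPM.

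Markers of other cell types were examined for the same pair. The summed level of 9 fibroblast markers was 16242 CPM for SK-N-SH, above the 16.6 to 12224 CPM of the other 12 lines. In SH-SY5Y the sum was 320 CPM, within that range, and 6 of the 9 were at least 4-fold higher in SK-N-SH. COL1A1, COL3A1 and POSTN, the matrix genes given above, made most of the SK-N-SH sum. PDGFRA, also among the 9, was at a like level in both lines. The 9 neuroblast markers summed to 320 CPM in SK-N-SH, below all 12 other lines (447 to 20712 CPM), and to 5610 CPM in SH-SY5Y. Endothelial markers summed to 3.65 and 3.10 CPM. Schwann cell markers summed to 7.68 and 5.21 CPM, with SOX10, their defining factor, at 0 counts in SK-N-SH and 2 in SH-SY5Y. Among leukocyte markers CD3D and CD3E were at 0 in both lines and PTPRC at 0.576 and 1.47 CPM, and CD68, which is not limited to leukocytes, made most of the sum of 47.8 CPM in SK-N-SH. The part of fibroblast-type cells in the matrix and mesenchymal results was not tested.

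A difference between 2 single lines can be read against the spread of the other 12. It exceeded the whole distance between their lowest and highest line in 280 of the genes higher in SK-N-SH (1.83% of measured genes) and in 97 of those lower (0.634%). On the deposited log2 values, 194 of the 280 and 50 of the 97 stayed past 4-fold and beyond that distance. Without GI-ME-N in the background the counts of 280 and 97 became 507 and 283. Among those with at least 10 CPM in the higher line, the highest ratios were those of MOXD1, PRRX1, SUCNR1, SLC38A4, FOXD1, POSTN, VEGFC, TMEM155, ARHGAP18, CCDC85A, DAB2, MXRA5, TMEM200A and NT5E. MOXD1, a monooxygenase-like protein related to DBH, was at 638 CPM against 0.184 CPM (8 counts), a 3475-fold ratio (95% interval 1763 to 8049), with 15.7 CPM at most in the other lines. SUCNR1, the succinate receptor, was at 113 CPM against 0 counts, at least 1637-fold higher, and reached only 0.253 CPM elsewhere. SLC38A4, an amino acid transporter, was at 514 CPM against 0.229 CPM, 80.5-fold above the next line. VEGFC, a lymphatic growth factor, was at 130 CPM against 0.0459 CPM.

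The lowest ratios beyond the spread belonged to ALK, ROBO2, SLC35D3, SERTM2, TRIM67, CXCR4, HS6ST2, CCSER1, CHRM2, CBLN4, ERICH3, ADGRB3, ABCA12, CD24 and PIWIL1. ROBO2, an axon guidance receptor, was at 0.0549 CPM (2 counts) against 58.1 CPM, and CXCR4, a chemokine receptor, at 0.302 against 116 CPM. CXCL12, its ligand, lay on the other side, at 6.31 CPM for SK-N-SH and 0.0688 CPM in SH-SY5Y. SERTM2, a small membrane protein, was at 163 CPM in SH-SY5Y, 8.17-fold above the next line. CBLN4, a synapse organiser, was at 21.7 CPM in SH-SY5Y, 1 count in SK-N-SH and no more than 0.774 CPM in the other 12 lines. PIWIL1, a germline Argonaute protein, was at 19.6 CPM against 0.0549 CPM.

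Some genes were counted in one line of the pair only. At 0 counts in SH-SY5Y and at least 1 CPM in SK-N-SH were 63 genes. Led by SUCNR1 and TMEM155, they continued with ESM1 (29.4 CPM), PALM2-AKAP2, AC073264.3, LHX9, CXCL8 and DPP4 (12.9 CPM). ESM1, an endothelial-type proteoglycan, reached 0.0269 CPM at most in the other 12 lines. In the other direction 73 genes were at 0 in SK-N-SH. SLC35D3 (24.0 CPM in SH-SY5Y), TRIM67, OLFM3, EPHA8, CHRM2, ERICH3, FAM155B and NEXMIF (7.80 CPM) had the highest levels there. SLC35D3, at least 291-fold higher in SH-SY5Y, and the muscarinic receptor CHRM2, at least 171-fold higher, had counts in each of the other 12 lines. SLC35D3 was at only 0.0620 CPM in GI-ME-N, under the 0.0823 CPM that 0 counts allow in SK-N-SH.

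SK-N-SH lay outside the range of the other 12 lines more often than SH-SY5Y. Over all 15299 measured genes, SK-N-SH was above all 12 in 10.1% and below all 12 in 6.38%, and SH-SY5Y was above in 3.71% and below in 2.33%. The shares among the called genes are a description, since the call itself favours them. Of the 1448 genes higher in SK-N-SH, SK-N-SH lay above all 12 others in 699 (48.3%), while SH-SY5Y lay below all 12 in 119 (8.22%). Of the 1321 genes lower in SK-N-SH, SK-N-SH lay below all 12 in 302 (22.9%), and SH-SY5Y above all 12 in 175 (13.2%). GI-ME-N was the highest of the other 12 in 674 of the 1448 (46.5%) and the lowest in 784 of the 1321 (59.3%).

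Across genes, SK-N-SH resembled GI-ME-N most (Pearson r of log2 CPM 0.852), then SK-N-AS (0.786), and SH-SY5Y was 3rd (0.748). SH-SY5Y resembled IMR32 most (0.846), and SK-N-SH was 12th of its 13 partners. Among all 91 pairs of lines, the pair ranked 52nd by the share of genes past 4-fold, 18.1% against a median of 17.2% (range 9.06% to 33.4%). IMR32 and IMR5-75, also a line and its subclone by textbook knowledge, had 11.6% and ranked 7th. These correlations are across genes, which are not independent, and pairs share libraries and their depth and length trends, so they carry no p.

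**Figure D4:**
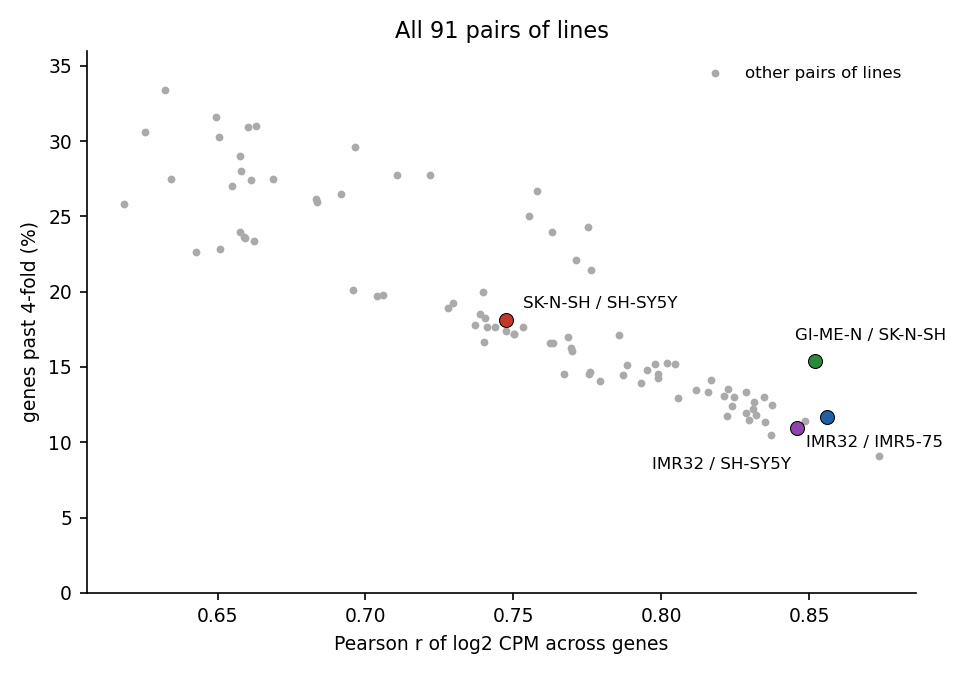
Share of genes past 4-fold (y axis, percent) against Pearson r of log2 CPM across genes (x axis) for the 91 pairs of lines, each point a pair. SK-N-SH with SH-SY5Y, at 18.1%, lies among pairs of unrelated lines, and IMR32 with IMR5-75, at 11.6%, lies near the lower end.

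Genes that both lines held apart from the other 12 were few. Higher in both than in any other line by at least 4-fold were 2 genes (0.0131%), and lower in both were 4 (0.0261%). TCIM was at 70.8 CPM for SK-N-SH and 1.12 CPM in SH-SY5Y, where the other lines reached 0.120 CPM. RGPD1 was at 16.5 and 11.2 CPM against 2.55 CPM at most. RGPD1 has near-identical copies, so its counts are uncertain. The genes lower in both were LIN7A, PELI2, EPB41L3 and NRIP1. NRIP1, a nuclear receptor corepressor, was at 0.247 and 0.206 CPM against a range of 1.46 to 208 CPM, and PELI2, a ubiquitin ligase of innate signalling, at 0.0823 and 0.0918 CPM against 0.983 to 97.9 CPM. Over all pairs of lines, the number of such genes had a median of 4 and ran from 0 to 263, the latter in GI-ME-N with SK-N-SH. IMR32 with IMR5-75 had 20.

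By whole chromosome, the median log2 ratio lay between -0.18 (chromosomes 13 and 19) and 0.12 (chromosomes 11 and 21) for every autosome and X. Single regions stood further from 0. Among 569 overlapping windows of 40 neighbouring genes, the median log2 ratio had an interquartile range of -0.04 to 0.19. The lowest windows lay on chromosome 19, at chr19:19997058-33208867 (median -1.19, 30 of 40 genes below 0) and chr19:19176903-23758891 (median -1.12, 36 of 40), a region with many zinc finger genes. The lowest window outside chromosome 19 was at the end of chromosome 13 (chr13:100530164-114305817, median -0.61). The highest was chr12:100573683-108598320, with a median of 0.82 and 11 of 40 genes below 0. The 13 mitochondrial genes had a median of 1.20, beside the higher mitochondrial share of the SK-N-SH library.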

How the data were processed

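Per the labels' protocols, TRIzol was used to extract total RNA from 14 neuroblastoma lines, and TruSeq kits to prepare the libraries. No role is stated for kallisto 0.44.0, DESeq2 1.48.2 and GRCh38, which are listed per the submitters' processing notes. Annotation, strand setting and filters: not given in the sources used here. As for units, the count table deposited by the authors holds whole numbers for 20049 symbols, read as estimated counts rounded to whole numbers, a unit taken from the values. The log2 table deposited by the authors, called variance-stabilised in its name, served only as an alternative.

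TMM factors over all 14 libraries (edgeR 4.0.16, R 4.3.3) gave CPM, and its log2 used a prior count of 2; SK-N-SH had a factor of 0.846 and SH-SY5Y of 1.10. A gene was measured with at least 50 counts over both libraries and called at a fold of 4. A ratio against 0 counts used a floor of 3 counts. Ratio intervals were exact binomial (scipy 1.17.1). No library was a copy of another: the chi-square per gene was 878 for this pair, and the smallest over the 91 pairs was 315. The calling rule was run on counts simulated with counting error only, which hold no spread between cultures or libraries.

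The pair and the 36 gene lists (554 memberships) were chosen with earlier results of these data known. Named genes were list members, the 15 highest and 15 lowest ratios beyond the spread with at least 10 CPM in the higher line, 8 genes at 0 counts each way, and genes that set both lines apart. XIST and Y-linked genes were left out. Positions are from GENCODE 29, in which 98.9% of symbols matched 1 gene. Of measured genes 75.2% had a RefSeq promoter, 66.5% of those called lower and 74.9% of those called higher. Since these are under 80%, a comparison of motifs or CpG content between gene sets was void and is not given. RAET1L was not analysed here, and some genes that these rules name are not reported here. The alternatives were DESeq2 1.42.0 size factors, another prior count, floor or fold, the deposited log2 values, removal of the GC and length trend, mitochondrial genes left out, and backgrounds without GI-ME-N, IMR5-75 or, chosen after seeing the data, Lan-6.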

Additional observations from a re-analysis of the deposited data

How the results depend on the processing

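No paired analysis was possible because each line has 1 library and the labels give no replicate numbers, and no replicate could be left out. A fold of 2 called 2825 genes higher and 2767 lower, and a fold of 8 called 963 and 860. On the deposited log2 values 817 genes were lower by at least 4-fold, 808 of them among the 1321, and 0 genes set both lines above and 0 set both below the others. Without GI-ME-N in the background, 507 higher and 283 lower genes exceeded the spread of the rest, and 4 genes were higher and 13 lower in both lines. A prior count of 0.5 gave 4 and 7 such genes. The cause was not tested, except that a lower fold or fewer background lines must add genes. DESeq2 size factors, the other floors, the trend removal, leaving out mitochondrial genes, and backgrounds without IMR5-75 or Lan-6 kept the counts within 1.5 times. Of 300 named genes past 4-fold, the deposited log2 values put 39 under it and moved 196 by over 1.5 times, trend removal 3 and DESeq2 size factors 1, and none changed direction. Of 20 list medians past 4-fold, the deposited values moved 12 by over 1.5 times (by 1.93 log2 at most) and put 4 under 4-fold: natural killer ligands (3.13 to 1.36), interferon-stimulated genes (2.49 to 1.78), NF-kappaB genes (3.52 to 1.59) and integrins (3.02 to 1.62). The other 8 stayed past 4-fold: catecholamine genes at -3.29, granins at -3.80, neuronal cytoskeleton at -3.82, synaptic genes at -2.22, cholinergic genes at -3.67, MHC class I at 2.61, collagens at 3.37 and other matrix genes at 4.64. Another prior count, DESeq2 size factors, trend removal and leaving out mitochondrial genes put no list median under it. No scaling moved the median of all genes by more than 0.0414. The pair had slight trends with length (Spearman's rho -0.166) and GC content (0.0663) over 8321 genes under 4-fold. Low counts limit the ratios: a gene at 0 may hold up to 0.0823 CPM for SK-N-SH and 0.0688 CPM in SH-SY5Y. Without replicates, differences between cultures and libraries cannot be told apart from those between lines.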

Other observations

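The gene families below were chosen after their values were seen, by the start of the gene symbol, and carry no test. Ion channels and transmitter receptors were mostly lower in SK-N-SH than in SH-SY5Y. Of 14 measured ionotropic and delta glutamate receptor subunits 9 were at least 4-fold lower and none higher (median log2 ratio -4.37, and -2.47 on the deposited log2 values). GRIN1, the obligatory subunit of NMDA receptors, was at 0.137 CPM against 76.3 CPM, and GRIA2, an AMPA receptor subunit, at 0.110 against 47.7 CPM, while GRIA1 was at 10.7 against 11.8 CPM. Of 16 voltage-gated calcium channel subunits 10 were lower and none higher (median -2.83, and -1.91 on the deposited values, under 4-fold). CACNA1B, the pore of the N-type channel, was at 0.412 against 83.7 CPM, and CACNA1C, the pore of an L-type channel, at 18.99 against 30.9 CPM. The median of 53 potassium channel subunits was -1.18, and -0.81 on the deposited values, both under 4-fold. Beside 8.63% lower and 9.46% higher of all measured genes, 21 of these subunits were lower and 5 higher, the latter near the overall share. KCNK2, a background potassium channel, was among those higher, at 15.8 against 0.0918 CPM. By median deviation from the 14-line mean, calcium channels stood at 2.11 log2 in SH-SY5Y, the highest of 14, and -1.02 in SK-N-SH. GI-ME-N lay below SK-N-SH in each family: calcium channels at -2.70, glutamate receptors at -3.43 against -1.86, and potassium channels at -2.19 against -1.15. SK-N-AS was also lower for glutamate receptors, at -1.92. SH-SY5Y stood at 1.15 for glutamate receptors and 0.09 for potassium channels.

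Annexins, which bind membranes in the presence of calcium, and serpins, mostly protease inhibitors, lay on the SK-N-SH side. At least 4-fold higher were 5 of 9 annexins and 9 of 14 serpins, beside 9.46% of all measured genes, and 1 serpin was lower. The medians were 2.97 and 2.95, and 2.10 and 2.02 on the deposited values. By median deviation from the 14-line mean, SK-N-SH was highest for annexins (3.05). For serpins GI-ME-N (2.26) lay above SK-N-SH (2.12). ANXA3 was at 9.33 CPM against 1.15 CPM, with 0.726 CPM at most in the other 12 lines. In the TNF receptor superfamily 8 of 14 were higher and 1 lower (median 2.66, and 1.63 on the deposited values, under 4-fold). Its member TNFRSF11B, the gene of osteoprotegerin, was at 18.7 CPM against 0.0229 CPM (1 count), with 0.332 CPM at most elsewhere. Of 27 histone genes with older HIST symbols, which are near-identical copies and mostly lack poly(A) tails, 12 were higher and none lower (median 1.88, and 1.02 on the deposited values). Their median deviation from the 14-line mean was 0.76 log2 in SK-N-SH and -1.53 in SH-SY5Y, within the range of the other lines (-1.56 to 2.02).

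Of 14 measured HOX genes 3 were at least 4-fold higher in SK-N-SH and 5 lower (median log2 ratio -0.76, and -0.74 on the deposited values). By median deviation from the 14-line mean, SK-N-SH stood at -0.36 and SH-SY5Y at 0.44, within the range of the other lines (-2.50 to 1.13). All 7 measured HOXD genes had ratios below 1, 5 of them past 4-fold, such as HOXD3 at 2.31 CPM against 20.3 CPM. HOXB2 and HOXB3 were at 2.39 and 1.76 CPM for SK-N-SH and at 0 counts in SH-SY5Y. HOXC4, HOXC5, HOXC6 and HOXC9 stayed under 4-fold.

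Zinc finger genes named ZNF, most of them repressors with KRAB domains, were lower in SK-N-SH as a broad shift. Of 507 measured, 439 (86.6%) had ratios below 1, beside 7699 of all 15299 measured genes. Past 4-fold were 39 lower and 4 higher, beside 8.63% lower and 9.46% higher of all measured genes. Calls of lower genes were thus no more frequent than over all genes, and the shift lies in the direction of small ratios. The median log2 ratio was -0.81 for the 250 on chromosome 19 and -0.58 for the 257 elsewhere, beside 0.01 for the other 873 genes of chromosome 19. With the GC and length trend removed the medians of the ZNF genes were -0.84 and -0.58, and on the deposited log2 values -0.67 and -0.56. GI-ME-N had the lowest median deviation of the 507 genes from the 14-line mean (-0.63 log2) and SK-N-SH the next lowest (-0.33), while SH-SY5Y was at 0.33. Lan-6 followed SK-N-SH at -0.26, and SK-N-AS stood at 0.02. For the 250 on chromosome 19, IMR5-75 (-0.51) as well as GI-ME-N (-0.75) lay below SK-N-SH (-0.36). Zinc finger genes share sequence, so single counts may be split between copies.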
